A study of Mus musculus with 6 samples.

Results

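C/EBPα binding was mapped by chromatin immunoprecipitation sequencing (ChIP-seq) in mouse bone marrow-derived macrophages (BMDMs), once without IL-4 and once after 1 h of IL-4. These are 2 of the 6 samples of the series, and their peak lists hold 49098 of its 134964 peaks. The control list had 24486 C/EBPα peaks and the IL-4 list had 24612. A peak was called shared when it overlapped a peak of the other C/EBPα list by at least 1 bp, and was otherwise called control-only or IL-4-only.

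Both samples came from wild-type C57BL/6 mice of 8 to 12 weeks. Marrow cells were grown for 6 days in L929 supernatant, which supplies M-CSF, and the treated cells then received 20 ng/ml IL-4 while the control cells received none. All cells were fixed with both DSG and formaldehyde before precipitation. Each condition had 1 sample, so nothing below was tested against replicate spread. Intervals are 95% Wilson intervals over peaks for shares and Newcombe intervals for differences of shares, and they cover counting error only. The sequencing depth of the libraries is unknown and the kit used for each library was not given, so depth, kit and background cannot be told apart from IL-4.

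C/EBPα is a basic leucine zipper transcription factor that binds DNA as a dimer and, with the ETS factor PU.1, selects enhancers in the myeloid lineage. It is required for granulocyte and macrophage progenitors and keeps binding widely in mature macrophages. IL-4 acts through the kinases of its receptor on STAT6, a factor that dimerizes, enters the nucleus and binds palindromes of TTC and GAA separated by a short spacer.

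The windows below show the DNA of 4 of the 5 IL-4-only peaks that scored highest, because the DNA under such peaks is where the classes differed most. Of these 4 peaks, 3 held a STAT6-type match. Each is the 200 bp around the peak centre in mm10 (GRCm38), plus strand, 5′ to 3′. Capitals mark matches on either strand to the C/EBP motif TTGCNNAA and to the STAT6-type motif, TTC and GAA with 4 bases between them.
Fam20b (IL-4-only, chr1:156710887-156711086): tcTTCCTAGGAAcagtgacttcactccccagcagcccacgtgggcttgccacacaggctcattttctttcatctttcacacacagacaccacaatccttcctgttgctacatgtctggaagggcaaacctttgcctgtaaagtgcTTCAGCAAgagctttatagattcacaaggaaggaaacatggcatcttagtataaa
4930413G21Rik (IL-4-only, chr7:122924250-122924449): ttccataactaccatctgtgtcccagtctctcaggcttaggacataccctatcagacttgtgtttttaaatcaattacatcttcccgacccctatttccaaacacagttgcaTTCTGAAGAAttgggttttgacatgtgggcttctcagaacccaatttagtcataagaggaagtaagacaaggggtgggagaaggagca
Mll5 (IL-4-only, chr5:23439956-23440155): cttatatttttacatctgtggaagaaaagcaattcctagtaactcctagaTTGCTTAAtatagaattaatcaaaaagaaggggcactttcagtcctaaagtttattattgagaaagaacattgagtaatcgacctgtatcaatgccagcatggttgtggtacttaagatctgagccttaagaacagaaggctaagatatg
E230029C05Rik (IL-4-only, chr7:90026140-90026339): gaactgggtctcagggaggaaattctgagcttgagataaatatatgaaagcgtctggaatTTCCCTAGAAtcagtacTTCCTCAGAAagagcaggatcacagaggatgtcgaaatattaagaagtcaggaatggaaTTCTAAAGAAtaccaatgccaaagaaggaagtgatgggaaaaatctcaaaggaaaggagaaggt

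The top 3 peaks of the control-only class, shown in the same way, held no STAT6-type match.
Lyz2 (control-only, chr10:117276007-117276206): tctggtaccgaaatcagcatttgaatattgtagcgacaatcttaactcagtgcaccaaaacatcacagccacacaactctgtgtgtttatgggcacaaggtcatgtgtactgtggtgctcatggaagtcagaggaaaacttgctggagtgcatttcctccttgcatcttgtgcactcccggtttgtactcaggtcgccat
4933416E03Rik (control-only, chr2:159557631-159557830): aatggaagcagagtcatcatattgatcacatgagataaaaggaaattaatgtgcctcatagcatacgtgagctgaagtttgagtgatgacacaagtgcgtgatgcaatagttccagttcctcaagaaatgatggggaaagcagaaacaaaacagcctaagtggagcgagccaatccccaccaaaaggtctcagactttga
Ulk1 (control-only, chr5:110815499-110815698): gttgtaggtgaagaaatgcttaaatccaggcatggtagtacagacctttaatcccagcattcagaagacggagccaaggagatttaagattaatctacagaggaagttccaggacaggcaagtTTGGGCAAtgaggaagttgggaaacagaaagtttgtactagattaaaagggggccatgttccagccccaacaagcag

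A further pair of windows belongs to shared peaks. Near Socs1 and B3gnt2, they had the highest IL-4 scores among the 10 pairs with the largest ratio of IL-4 to control score.
Socs1 (shared, chr16:10702439-10702638): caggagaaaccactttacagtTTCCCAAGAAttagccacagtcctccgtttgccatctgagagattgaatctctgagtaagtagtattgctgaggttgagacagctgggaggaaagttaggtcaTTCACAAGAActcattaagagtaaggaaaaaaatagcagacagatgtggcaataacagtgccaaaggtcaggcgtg
B3gnt2 (shared, chr11:22693511-22693710): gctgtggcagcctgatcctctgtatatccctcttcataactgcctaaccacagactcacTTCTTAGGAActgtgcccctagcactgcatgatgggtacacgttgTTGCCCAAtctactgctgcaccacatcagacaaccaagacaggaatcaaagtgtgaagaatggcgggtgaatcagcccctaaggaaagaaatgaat

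Most C/EBPα peaks were found in both conditions. Of the control peaks 19258 (78.6%, interval 78.1 to 79.2) were shared, and of the IL-4 peaks 19208 (78.0%, 77.5 to 78.6). The control-only class had 5228 peaks, which is 21.4% of the control list, and the IL-4-only class had 5404 peaks, which is 22% of the IL-4 list. The lists were thus of nearly the same length, with nearly equal shares of single-list peaks. At the edge of the overlap rule, 36 pairs overlapped by 1 to 20 bp, while 12 control-only and 16 IL-4-only peaks lay within 20 bp of a peak of the other list.

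Peaks of a single list were mostly weak. The deposited Peak Score, whose unit is not stated, had a median of 14.8 in shared peaks of the control list, 5.62 in control-only peaks and 5.88 in IL-4-only peaks. The median width was 292 bp in shared peaks of either list, 191 bp in control-only and 199 bp in IL-4-only peaks. The classes parted at high scores. With a score of at least 10 there were 505 control-only and 797 IL-4-only peaks, with at least 20 there were 14 and 125, and with at least 30 there were 1 and 42. At 40 or more, 15 of 3440 IL-4 peaks had no control partner (0.436%, 0.264 to 0.718), against 0 of 3225 control peaks without an IL-4 partner, where 3 counts, taken as the limit that a count of 0 allows, would be 0.0930% and the Wilson upper limit is 0.119%.

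**Figure D1:**
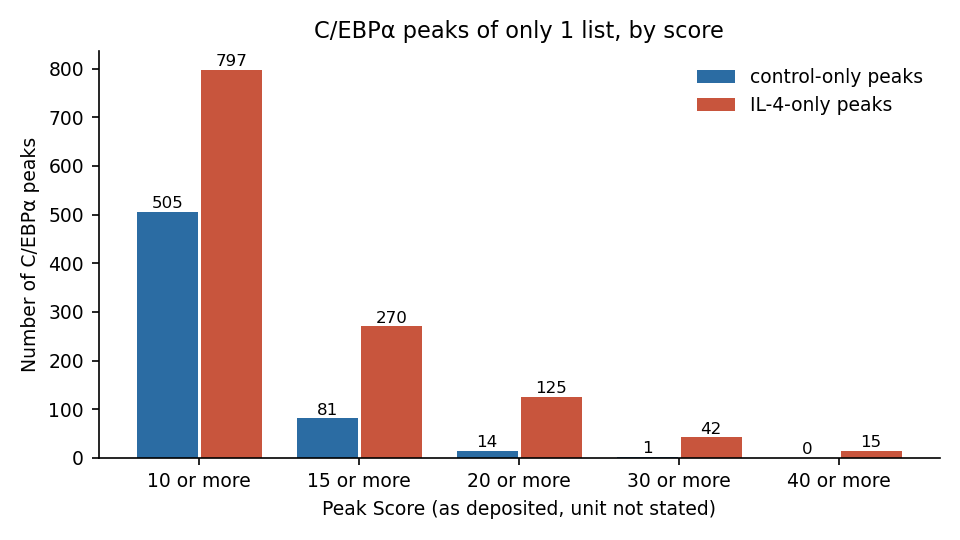
Number of control-only (blue) and IL-4-only (red) C/EBPα peaks at or above each Peak Score, 1 sample per condition, with the counts printed over the bars. The classes stand at 505 and 797 peaks at a score of 10 or more, and 125 IL-4-only peaks stand against 14 control-only peaks at 20 or more.

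Single-list peaks often lay in neighbourhoods that C/EBPα occupied in both conditions. The median gap to the nearest peak of the other list was 10484 bp for control-only and 9222.5 bp for IL-4-only peaks. Of the IL-4-only peaks 52.2% (50.9 to 53.6) had a control peak within 10 kb, and of the control-only peaks 48.8% (47.4 to 50.1) had an IL-4 peak that near. Among the 125 IL-4-only peaks scoring at least 20, 73 (58.4%, 49.6 to 66.7) had a control peak within 10 kb.

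At shared peaks the scores were centred on no difference. Over 19111 one-to-one pairs the median log2 ratio of IL-4 to control score was -0.0038, with quartiles at -0.41 and 0.41. The score was at least 2-fold higher after IL-4 in 1476 pairs (7.72%) and at least 2-fold lower in 1253 (6.56%). Of the 8659 pairs with a score of at least 20 in either list, 690 were 2-fold higher and 371 were 2-fold lower. The excess of higher over lower pairs was therefore larger among strong peaks.

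The sequence of the peaks, which played no part in defining the classes, separated them. A STAT6-type match lay in the 200 bp window of 1083 of 5404 IL-4-only peaks (20.0%, 19 to 21.1), 178 of 5228 control-only peaks (3.40%, 2.95 to 3.93) and 1394 of 19258 shared peaks (7.24%, 6.88 to 7.61). The IL-4-only share exceeded the control-only share by 16.6 percentage points (15.5 to 17.8). Among 26476 windows of the same length placed every 100000 bp across the genome, 5.80% (5.53 to 6.09) held a match, so control-only peaks stood below that level and IL-4-only peaks above it.

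The STAT6-type share was higher in higher score steps of IL-4-only peaks and not of control-only peaks. It was 12.7% (11.3 to 14.3) of IL-4-only peaks scoring under 5, 18.6% (17.2 to 20.1) at 5 to 10, 38.5% (34.9 to 42.3) at 10 to 20 and 64.0% (55.3 to 71.9) at 20 or more. The control-only shares were 3.83%, 3.36% and 2.04% in the first 3 of these steps, and 0 of 14 peaks had a match in the last. Compared within 4 score ranges of about equal size, the classes differed by 8.08 points in the lowest range and by 31.8 points in the highest. With spacers of 1, 2, 5 or 6 bases between TTC and GAA the IL-4-only share was 7.03%, 7.07%, 6.24% and 6.46%, against 5.45%, 6.64%, 6.47% and 7.02% in control-only peaks. The interval of the difference was above 0 for a spacer of 1 base (1.58 points, 0.661 to 2.50) and included 0 for the other 3 spacers. With 3 bases, the spacing preferred by other STAT dimers, it was 11% (592 peaks) against 5.13% (268 peaks).

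**Figure D2:**
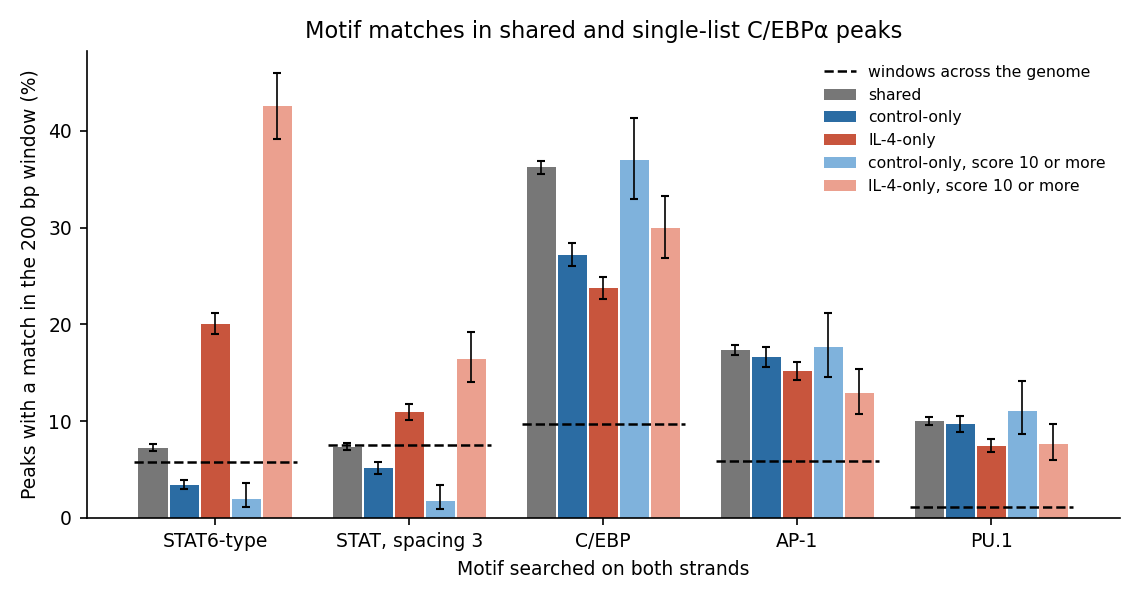
Share of C/EBPα peaks with a motif match in the 200 bp around the centre, by class, with 95% Wilson intervals over peaks and, as dashed lines, the share in windows across the genome. STAT6-type matches reach 20.0% of IL-4-only peaks and 42.5% of those scoring at least 10, while C/EBP, AP-1 and PU.1 matches are above the genome level in every class.

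The C/EBP motif itself showed the opposite order and a smaller difference. It was present in 6982 of 19258 shared peaks (36.3%, 35.6 to 36.9), 1421 control-only peaks (27.2%, 26.0 to 28.4) and 1285 IL-4-only peaks (23.8%, 22.7 to 24.9), against 9.74% of genome windows. IL-4-only peaks were 3.40 points below control-only peaks (difference -3.40, interval -5.06 to -1.75). PU.1 matches, whose searched form was GAGGAAGT, were in 7.46% of IL-4-only and 9.68% of control-only peaks. AP-1 matches (TGANTCA) were in 15.1% and 16.6%.

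Few IL-4-only peaks held both kinds of site, but the share was larger than in the other classes. Both matches occurred in 466 shared peaks (2.42%) and 46 control-only peaks (0.880%). In IL-4-only peaks a STAT6-type and a C/EBP match occurred together in 254 (4.70%) and a STAT6-type match alone in 829 (15.3%). A C/EBP match alone was in 1031 (19.1%) and neither in 3290 (60.9%). Among the 125 IL-4-only peaks scoring at least 20, 23 had both, 57 the STAT6-type match alone, 17 the C/EBP match alone and 28 neither. Strong IL-4-only C/EBPα peaks thus carried a STAT6-type match without a C/EBP match more often than any other combination. Absence of a match says only that these letters are not in the window.

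C/EBP matches were piled up at the peak centre and STAT6-type matches less so. Of C/EBP matches in shared peaks 47.6% (46.5 to 48.7) lay within 25 bp of the centre, and in IL-4-only peaks 43.4% (40.8 to 46.0). Of the 1174 STAT6-type matches in IL-4-only peaks 34.2% (31.5 to 36.9) did, compared with 27.3% (25 to 29.6) in shared and 23.1% (17.6 to 29.7) in control-only peaks.

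**Figure D3:**
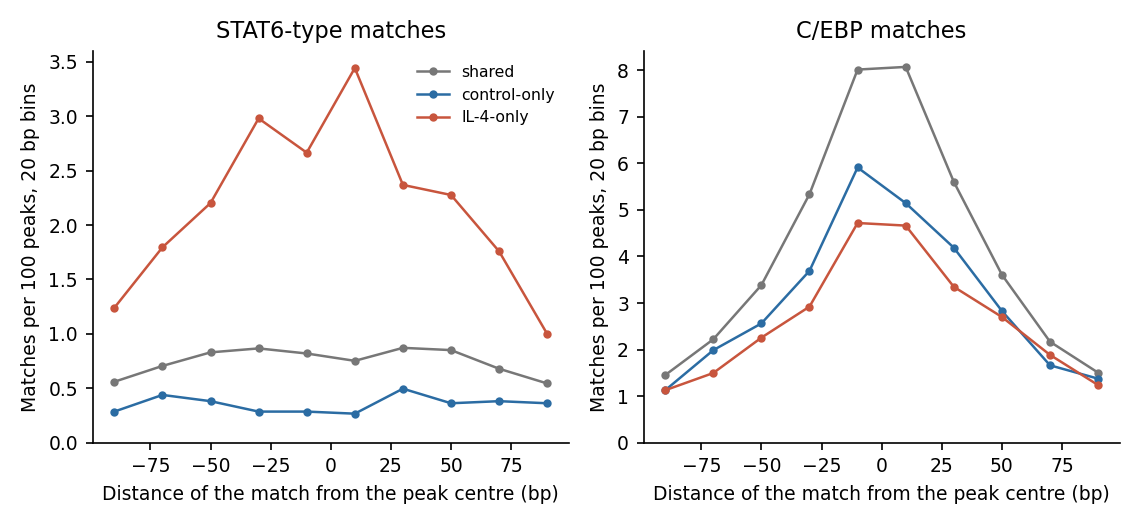
Matches per 100 peaks in 20 bp bins along the 200 bp window, by distance in bp from the peak centre, for STAT6-type (left) and C/EBP (right) matches in shared, control-only and IL-4-only C/EBPα peaks. The STAT6-type line bulges at the centre in IL-4-only peaks and runs flat in control-only peaks, and all 3 C/EBP lines are highest at the centre.

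The same motif followed the score ratio at shared peaks. In pairs that scored at least 2-fold higher after IL-4, 362 of 1476 had a STAT6-type match (24.5%, 22.4 to 26.8), and in pairs at least 2-fold lower 29 of 1253 did (2.31%, 1.62 to 3.30). Across steps of the log2 ratio the share went from 1.2% of 249 pairs between -2 and -1.5 to 46.4% (39.5 to 53.4) of the 194 pairs at 2 or more. The C/EBP share stayed between 26.0% and 38.7% in all 10 steps.

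**Figure D4:**
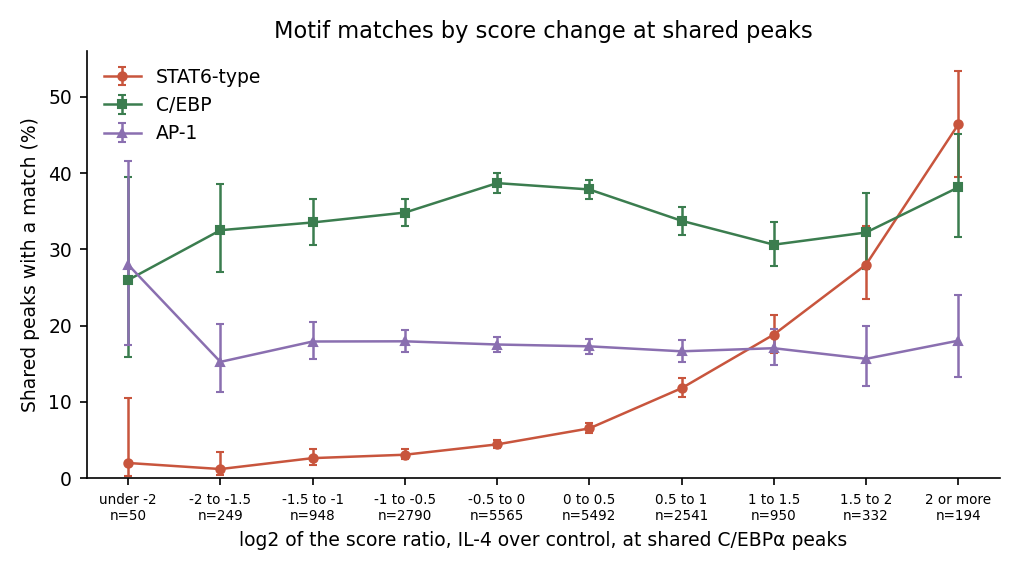
Share of shared C/EBPα peaks with a STAT6-type, C/EBP or AP-1 match, by step of the log2 score ratio (IL-4 over control), with 95% Wilson intervals and the number of pairs under each step. The STAT6-type line goes up from the middle of the axis to 46.4% at a log2 ratio of 2 or more. The C/EBP points lie between 26.0% and 38.7%, and the AP-1 points between 15.3% and 28.0%, the highest in the step of 50 pairs under -2.

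Annotation differed less than sequence. By the authors' annotation 503 IL-4-only peaks (9.31%) lay at promoters, against 377 control-only (7.21%) and 1307 shared peaks (6.79%), so the IL-4-only share was 2.10 points above the control-only share (1.05 to 3.14). Introns after the first held 24.8% of IL-4-only and 29.4% of control-only peaks (difference -4.57, -6.25 to -2.88). Intergenic shares were 40.7% and 40.6%, a difference of 0.14 points (-1.73 to 2.01). The median distance to a transcription start site (TSS) was 16796 bp for IL-4-only, 20749 bp for control-only and 20113 bp for shared peaks. Promoter shares were lower at high scores in both classes. From the lowest to the highest of 4 score ranges they were 11.3% and 6.72% in IL-4-only peaks, and 9.04% and 5.07% in control-only peaks. Of IL-4-only peaks scoring at least 20, 2 of 125 were at promoters (1.60%, 0.440 to 5.65) and 68 were intergenic (54.4%, 45.7 to 62.9). Of the 14 control-only peaks with such scores, 0 were at promoters and 9 were intergenic (64.3%, 38.8 to 83.7).

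The other lineage factors of the series also marked part of these sites. IRF8, an interferon regulatory factor of the monocyte lineage, had a peak at 64.4% of shared C/EBPα peaks after IL-4 and at 63.0% in control. At IL-4-only peaks the overlap was 35.7% (34.4 to 37.0) with control IRF8 peaks and 46.6% (45.3 to 48.0) with IL-4 IRF8 peaks, and at control-only peaks it was 39.9% and 39.0%. The overlap with IL-4 IRF8 peaks differed between the classes by 7.61 points (5.73 to 9.48). Among IL-4-only peaks scoring at least 20 it was 33 of 125 (26.4%, 19.5 to 34.7) in control and 82 of 125 (65.6%, 56.9 to 73.4) after IL-4, and 50 of these 125 overlapped an IRF8 peak of the IL-4 list alone. The IRF8 IL-4 list is longer (42076 peaks, median width 291 bp) than its control list (37525 peaks, 268 bp). How far list length and peak width bear on these overlaps was not tested.

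JUNB, an AP-1 subunit, covered few of them. Its IL-4 list of 2325 peaks met 3.24% (2.80 to 3.74) of IL-4-only and 1.82% (1.49 to 2.22) of control-only C/EBPα peaks, and its control list of 3940 peaks met 3.63% and 4.53%. The STAT6-type motif was also seen in the peaks of these factors that appeared in the IL-4 list alone. It was in 1518 of 12804 such IRF8 peaks (11.9%, 11.3 to 12.4) and in 159 of 912 such JUNB peaks (17.4%, 15.1 to 20.0). In the peaks of their control lists alone it was in 3.94% for IRF8 and 5.53% for JUNB. The motif was thus also found in the lists of the other factors. These sets are partly the same sites, since 821 of 5404 IL-4-only C/EBPα peaks overlapped an IRF8 peak of the IL-4 list alone.

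The IL-4-only peak with the highest score, 68.8, lay in the first intron of Fam20b, which encodes a xylose kinase of proteoglycan synthesis, 7923 bp from the TSS. Others of the 10 strongest were near 4930413G21Rik (59.3), in the first intron of Mll5, a chromatin-associated SET-domain protein gene (59.1), near E230029C05Rik (54.6) and in the first intron of St8sia1, the gene of a ganglioside sialyltransferase (50.7). The first intron of Kif13b, a kinesin gene, followed at 49.5, then a site at -81345 bp from the clock gene Cry1, where a minus sign means upstream of the TSS (48.4), a site nearest to 4930552P12Rik (47.3) and one upstream of Zfpm1, which encodes a GATA cofactor (45.5). Of the 10 strongest IL-4-only peaks, 8 held a STAT6-type match, 6 held a C/EBP match, 8 overlapped an IRF8 peak after IL-4 and 3 overlapped one in control.

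The strongest control-only peak scored 32.3 and lay 6165 bp from the TSS of Lyz2, the gene of macrophage lysozyme. Control-only sites near 4933416E03Rik (24.6), Ulk1, an autophagy kinase gene (24), Spry2, an antagonist of receptor tyrosine kinase signalling (23.9), Cog2 of the Golgi tethering complex (23.2) and the first intron of Palld, an actin-associated protein gene (22.8), came after it. Of the 10 strongest, 0 held a STAT6-type match, 4 held a C/EBP match, and 5 overlapped an IRF8 peak in each condition. Around Lyz2 the values went both ways. An IL-4-only peak of 17.9 sat at its promoter, and a shared peak over its 3′ UTR scored 10.2 in control and 45.9 after IL-4.

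The 10 largest ratios of IL-4 to control score at shared peaks lay nearest to Plxnd1 (ratio 11.4), Pip4k2a, Tgm6, Mtmr11, Csf3r, Socs1, Rmi2, B3gnt2, Irf8 and Vmn1r39 (9.26). A site 82980 bp from the Socs1 TSS, in an intron of a neighbouring transcript, scored 7.03 in control and 72.3 after IL-4, a ratio of 10.3. SOCS1 is a feedback inhibitor of JAK-STAT signalling, and 2 STAT6-type matches stand in the window printed above. A site at -20381 bp from Csf3r, which encodes the G-CSF receptor, scored 3.22 and 34.0. A site at -31934 bp from Irf8 itself scored 2.91 and 27.0. Of the 10 largest ratios in favour of IL-4, 8 held a STAT6-type match, and of the 10 in favour of control 0 did.

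The 10 pairs in favour of control included a site at -2072 bp from Tmem38b, which scored 42.4 in control and 4.44 after IL-4. A site near Atp6v0d2, a vacuolar proton pump subunit gene, scored 26.1 and 4.16. A site near Mir511, a microRNA gene that lies within Mrc1, scored 31.5 and 5.52. A site in an intron near Bcl2l11, which encodes the apoptosis inducer BIM, scored 21.8 and 4.32. These pairs had lower scores in 1 sample and were chosen for that, so they are a description.

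Several genes gathered single-list peaks. Peaks were assigned to the nearest TSS by the authors, which does not make that gene their target. IL-4-only peaks were nearest to 3717 of the 10254 genes with any C/EBPα peak, and 363 genes had 3 or more. Control-only peaks were nearest to 3749 genes, and 326 had 3 or more. Both kinds occurred at 1375 genes.

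Prdm1, which encodes the repressor Blimp-1, had the most IL-4-only peaks. Its 11 peaks scored between 1.48 and 28.2 and spread from 174 to 270298 bp from the TSS, 4 of them with a STAT6-type match. It also had 3 control-only peaks, with a highest score of 6.21, and 17 shared ones. Gm20125 and Reep3, an endoplasmic reticulum protein gene, had 10 IL-4-only peaks each, of 30 and 25 IL-4 peaks. Of these IL-4-only peaks 6 and 1 held a STAT6-type match. The 2 genes also had 3 control-only of 23 and 1 of 16 control peaks. 4930552P12Rik, Gm14005 and Cd44, the hyaluronan receptor gene, had 9 IL-4-only peaks each, of 14, 21 and 19 IL-4 peaks. The highest of these scores were 47.3, 39.4 and 23.1. In the same order they had 1, 1 and 3 control-only of 6, 13 and 13 control peaks. Zfp608, Snx2, 1700016G22Rik and Foxn3 completed the list with 8 each. The ranking favours genes with many nearest peaks. Over all IL-4 peaks 22% were IL-4-only, and 1700016G22Rik had 8 of 30 and also 5 control-only of 27, while Prdm1 had 11 of 28 and Zfp608 8 of 25. At Snx2, a sorting nexin gene, and at Foxn3, a forkhead factor gene, the control list had only 2 peaks and the IL-4 list 10, and there was no control-only peak at either.

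Control-only peaks were most numerous at Btg1, an antiproliferative gene, Marcks, Nr3c1, which encodes the glucocorticoid receptor, Pag1 and Rybp, with 8 each. These were 8 of 30 control peaks at Btg1, of 22 at Marcks, of 17 at Nr3c1, of 14 at Pag1 and of 12 at Rybp, where 21.4% of all control peaks were control-only. The same genes had 1, 3, 2, 1 and 2 IL-4-only peaks. Their highest control-only scores were 15, 10.7, 8.59, 6.2 and 6.8. Mef2c, a MADS-box factor gene, Plxna1, Gm17746 and Tbl1xr1, a subunit of the NCoR corepressor complex, had 7 each, and E030013I19Rik had 6. These were 7 of 17 control peaks at Mef2c, of 10 at Plxna1, of 22 at Gm17746 and of 23 at Tbl1xr1, and 6 of 11 at E030013I19Rik. In the same order these genes had 2, 3, 2, 2 and 1 IL-4-only peaks. Only 1 of the 8 at Pag1 and 1 of the 6 at E030013I19Rik held a STAT6-type match, and none of those at the other 8 genes did. Pag1 stood out for C/EBP matches, which 6 of its 8 control-only peaks held.

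The binding was then read against genes whose RNA the study had found to respond to IL-4. Only the gene names were taken from the study, which chose them on RNA libraries not analysed here. The RNA direction of each list is therefore the study's and was not checked here. At 413 of the 488 IL-4-induced genes with a peak, 575 of 1948 IL-4 peaks were IL-4-only (29.5%, 27.5 to 31.6, against 22% over all genes) and 200 of 1577 control peaks were control-only (12.7%, 11.1 to 14.4, against 21.4%). At 519 of the 625 IL-4-repressed genes the figures were 298 of 1954 (15.3%, 13.7 to 16.9) and 489 of 2144 (22.8%, 21.1 to 24.6). The control-only share at repressed genes was thus near that of all genes, and their IL-4-only share was below it. The late-changing cluster, with peaks at 350 of 501 genes, had 23.5% and 18.4%, against 22% and 21.4% over all genes. By the study's text every cluster except the repressed one was induced by IL-4. The 488 genes called induced here leave the late-changing cluster out and so are a part of the study's induced genes.

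Score ratios at shared peaks had the same order. At induced genes the median log2 ratio of 1364 pairs was 0.19, with 209 pairs (15.3%, background 7.72%) at least 2-fold higher and 48 (3.52%, background 6.56%) at least 2-fold lower. At repressed genes the median of 1648 pairs was -0.07, with 89 (5.40%) higher and 147 (8.92%) lower. Among the IL-4-only peaks at induced genes 152 of 575 (26.4%) held a STAT6-type match, and at repressed genes 42 of 298 (14.1%).

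**Figure D5:**
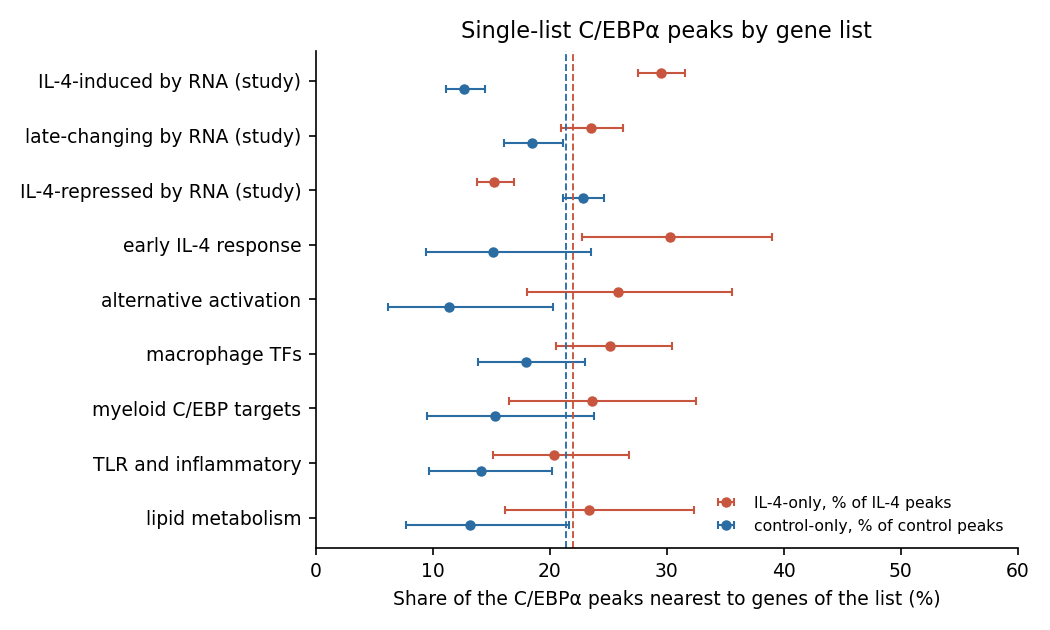
Share of IL-4 peaks that were IL-4-only (red) and of control peaks that were control-only (blue) among C/EBPα peaks nearest to the genes of each list, with 95% Wilson intervals over peaks and the shares over all peaks as dashed lines. IL-4-induced genes stand at 29.5% and 12.7%, on both sides of the lines, and IL-4-repressed genes at 15.3% and 22.8%.

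Among IL-4-induced genes, 38 had at least 3 IL-4-only and no control-only peak and 1, Snx29, had the reverse. By score the strongest of the 38 was Il6st, encoding the shared receptor subunit gp130, with 5 IL-4-only of 13 IL-4 peaks (highest 43.2). Next came 1810011H11Rik (3 of 4, 35.4), Pde4b, a cAMP phosphodiesterase gene (4 of 17, 33.7), and Irs2, an adaptor of the IL-4 receptor (6 of 11, 32.0). Tlr4, the LPS receptor gene (6 of 14, 31.8), and Ier3 (4 of 8, 30.9) followed. Over all IL-4 peaks 22% were IL-4-only, and the share at Pde4b was near that. A STAT6-type match was in 3 of the 5 IL-4-only peaks at Il6st, 3 of 3 at 1810011H11Rik and 2 of 4 at Pde4b. At Irs2 it was in 0 of 6, at Tlr4 in 1 of 6 and at Ier3 in 1 of 4. The death receptor gene Fas had 4 IL-4-only of 8 IL-4 peaks, and 3 of these 4 held a match. Among IL-4-repressed genes 22 had at least 3 control-only and no IL-4-only peak and 3, Apoe, Dusp1 and E2f2, had the reverse. The highest control-only scores of the 22 were at Ankrd50 (20.2), Pfkfb3, a regulator of glycolysis (18.7), Tnfrsf11a, the RANK receptor gene (14), and Fignl1 (13). Alcam had the most control-only peaks of them, 5 of 10 control peaks, where 21.4% of all control peaks were control-only. Over all genes, 130 had at least 3 IL-4-only and no control-only peak and 111 the reverse.

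Genes of the early IL-4 response, listed from general knowledge, had 36 IL-4-only of 119 IL-4 peaks (30.3%, 22.7 to 39.0) and 15 control-only of 99 control peaks (15.2%, 9.40 to 23.5). The shares over all peaks were 22% and 21.4%. Of the 16 genes of this list with a peak, 10 had more IL-4-only than control-only peaks, 2 had fewer (Hbegf and Myc) and 4 were even. Cish, a STAT-induced feedback inhibitor, had 1 peak in control and 5 after IL-4, of which the 4 IL-4-only ones scored 5.39 to 12.2. Irf4, a transcription factor of alternative activation, had 4 IL-4-only peaks, the highest (39.0) at -34420 bp from its TSS with no STAT6-type match, and 1 control-only peak of 4.22. Edn1, the endothelin gene, had 3, of which the highest scored 22.3. At Pparg, the lipid-sensing nuclear receptor gene, 4 peaks were IL-4-only and 4 control-only.

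Markers of alternative activation had 24 IL-4-only of 93 IL-4 peaks (25.8%, 18 to 35.5) and 9 control-only of 79 control peaks (11.4%, 6.11 to 20.3). The first of these intervals includes the 22% of all peaks and the second lies below the 21.4%. A low control-only share was not particular to these markers. It was 14.1% (9.67 to 20.1) at inflammatory and Toll-like receptor genes. Of the 21 genes with a peak, 13 had more IL-4-only than control-only peaks, 2 had fewer and 6 were even. The 2 were Ccl17, a chemokine gene with 2 control-only of 3 control peaks, and F13a1, a coagulation factor gene with 2 of 12 and a median log2 ratio of -0.37 over its pairs, and neither had an IL-4-only peak. Arg1, the arginase gene, had an IL-4-only peak of 6.60 at its promoter and a shared peak at -2919 bp that scored 45.4 in control and 97.7 after IL-4, with both a C/EBP and a STAT6-type match. Mrc1, the mannose receptor gene, had 5 IL-4-only peaks, the highest of 22.4, and 3 control-only peaks of up to 7.95. Chi3l4, a chitinase-like gene with close paralogues, had no control peak and 1 IL-4 peak of 17.3. At Cdh1, the E-cadherin gene, 2 shared intronic peaks scored 25.1 and 20.7 in control and 51.6 and 82.0 after IL-4. At Retnla, a classical IL-4 target, the only peak scored 16.3 in control and 15.7 after IL-4.

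Macrophage transcription factor genes had 73 IL-4-only of 290 IL-4 peaks (25.2%, 20.5 to 30.5) and 48 control-only of 267 control peaks (18%, 13.8 to 23), against 22% and 21.4% over all peaks. Both intervals include those shares. Of 35 genes with a peak, 19 had more IL-4-only and 10 more control-only peaks. Runx1 had 7 IL-4-only of 27 IL-4 peaks and 1 control-only of 21 control peaks, and Jun 6 of 14 and 1 of 9. Nfkb1 had an IL-4-only peak of 35.9 with a STAT6-type match in its first intron. Fli1 had 3 control-only of 12 control peaks, the highest of 6.06, and 0 IL-4-only of 9 IL-4 peaks. The median log2 ratio over its 9 pairs was 0.07. At Tfec, a MiT-family factor gene, the promoter peak scored 55.5 in control and 144 after IL-4.

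Myeloid genes known as C/EBP targets had 25 IL-4-only of 106 IL-4 peaks (23.6%, 16.5 to 32.5) and 15 control-only of 98 control peaks (15.3%, 9.50 to 23.7), against 22% and 21.4% over all peaks. Both intervals include those shares. Their strongest sites were in both lists. Lyz1 reached a score of 230 in the control list and 226 in the IL-4 list, and Csf2ra reached 123 and 175. The genes of the C/EBP family itself had 11 peaks in each list, at 4 of 7 genes, with 1 IL-4-only and 1 control-only peak.

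Inflammatory and Toll-like receptor genes had 37 IL-4-only of 182 IL-4 peaks (20.3%, 15.1 to 26.8) and 24 control-only of 170 control peaks (14.1%, 9.67 to 20.1), against 22% and 21.4% over all peaks. The IL-4-only share was near that of all peaks and the control-only share was lower. Of 44 genes with a peak, 15 had more IL-4-only peaks, 11 more control-only peaks and 18 were even. Peaks of the IL-4 list alone numbered 6 of 14 at Tlr4 and 4 of 13 at Tnfaip3, which encodes the NF-κB inhibitor A20. They numbered 3 of 8 at Rel, 3 of 9 at the chemokine gene Ccl2 and 2 of 2 at Cxcl10. Those of the control list alone numbered 0 of 8, 2 of 11, 0 of 5, 1 of 7 and 0 of 0 in the same order. Il1b, which encodes interleukin-1β, had 3 control-only of 5 control peaks, of 3.29, 5.59 and 8.91, and no IL-4-only peak. Its other 2 peaks were shared, with a median log2 ratio of -0.04. The highest score at Il1b was 86.8 in control and 72.8 after IL-4. A list of 12 genes was taken from the study's text, which names them for repression by IL-4, Fcgr1 and Il18 only through their enhancers. These genes had 3 IL-4-only of 59 IL-4 peaks (5.08%, 1.74 to 13.9) and 10 control-only of 66 control peaks (15.2%, 8.44 to 25.7). The first share is below the 22% of all IL-4 peaks, and the interval of the second includes the 21.4% of all control peaks. Of the 10 control-only peaks, 3 were at Il1b, 2 each at Fos, Lyz1 and Lyz2, and 1 at Clec4d. Lyz1 and Lyz2 are neighbouring near-identical copies, so reads may have been split between them and their values are uncertain. The 3 genes it names as activated had 9 IL-4-only of 39 and 5 control-only of 35 peaks. Lipid metabolism genes had 24 IL-4-only of 103 IL-4 peaks (23.3%) and 12 control-only of 91 control peaks (13.2%, 7.71 to 21.6), so the IL-4-only share was near that of all peaks.

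The lists were checked against marker genes, which here show where C/EBPα bound and not what was expressed. Of 12 macrophage markers, 10 had a C/EBPα peak, with highest control scores of 174 at Mpeg1 and 97.2 at Fcgr1. Peaks were also nearest to 10 of 14 neutrophil, 6 of 8 adipocyte, 5 of 8 B cell, 4 of 10 hepatocyte and 3 of 10 T cell markers. Ms4a1, a B cell marker, had a control score of 109. Binding near a marker therefore does not identify the cell type.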

How the data were processed

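C/EBPα ChIP-seq peak lists from control and IL-4-treated BMDMs were compared, with the IRF8 and JUNB lists used for overlaps. Per the submitters' processing notes and methods, BWA 0.7.10, SAMtools 0.1.19, HOMER 4.2 and MACS2 2.0.10 were used on mm10. Peaks were called per sample, and ENCODE blacklisted regions were removed. The deposited files give a Peak Score, whose unit is not stated, and the authors' HOMER annotation, including Distance to TSS in bp. The control library for peak calling was not given in the sources used here. Start coordinates were used as deposited and may be off by 1 bp.

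Overlapping peaks (at least 1 bp) were paired one-to-one by largest overlap. Motifs were searched on both strands of GRCm38 in 200 bp around each peak centre, and in windows placed every 100000 bp across the genome. Sequence was read with pysam 0.24.0 and tables were handled with pandas 2.3.3, numpy 2.4.6 and scipy 1.17.1 under Python 3.11.15, and the functions were tested on simulated data. With 1 sample per condition no test was made.

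Genes named were those of the gene lists, the 10 genes with most single-list peaks of either kind, the 10 strongest single-list peaks, the 10 largest score ratios in each direction among pairs with a score of at least 20 in a list, and genes of the study's RNA clusters with at least 3 peaks of a single kind and none of the other. Members and lists were chosen with earlier results of these data known. Alternatives changed the overlap, score limit, list length, peak width, promoter distance, motif window and score scale. Leaving out mitochondrial peaks was chosen after seeing the data. The sequence and position of 1 of the 10 strongest IL-4-only peaks are not reported here.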

Additional observations from a re-analysis of the deposited data

Results flagged for a closer look

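The number of C/EBPα peaks after IL-4 was 1.01 times that of the control and the number of IRF8 peaks 1.12 times, whereas the number of JUNB peaks was 0.590 times, so the ratio lay on the other side of 1 for JUNB, although the C/EBPα lists were of nearly the same length. Each ratio rests on 1 sample per condition, and the difference was not tested.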

How the results depend on the processing

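Of 59 alternative values, 37 stayed near the reported one. A pair of values close to 0 changed sign. The intergenic difference of 0.14 points was -0.0515 as a mean over 4 score ranges, and the median log2 score ratio of -0.0038 was 0.010 with a score of at least 10 in both lists. The share of control peaks that were shared was 77.9% with an overlap of at least 50% of the shorter peak, 80.2% with peaks up to 500 bp apart counted as shared, 79.4% with the 20000 highest-scoring peaks of each list and 77.9% with every peak set to 200 bp. With a score of at least 10 in both lists it was 81.9%, with 2420 control-only and 2609 IL-4-only peaks, and 436 pairs were 2-fold higher and 229 lower. With a score of at least 10 compared with every peak of the other list it was 96.2%, with 505 control-only and 797 IL-4-only peaks. In that setting the intergenic difference was 2.24 points, the IL-4-only and control-only shares were 5.89% and 3.78% over all genes, 12.0% and 1.67% at IL-4-induced genes, and 2.94% and 4.48% at IL-4-repressed genes. With a TSS within 1000 bp as the definition of a promoter, the promoter difference was 3.28 points. The STAT6-type difference was 10.8 points in 100 bp windows and 18.1 points over whole peaks. Fewer peaks enter under a score limit, and the cause of the other differences was not tested. No paired analysis was possible because each condition had 1 sample. Depth was not given, so a peak of a single list may lie just under the calling limit in the other.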

Other observations

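On the X chromosome 161 of 511 control peaks were control-only (31.5%, interval 27.6 to 35.7), while 110 of 461 IL-4 peaks were IL-4-only (23.9%, 20.2 to 28.0). Across the autosomes the control-only share ran from 19.8% to 23.1% and the IL-4-only share from 18.1% to 24.3%, so the X chromosome lay above every autosome in its control-only share and within their range in its IL-4-only share.

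Long terminal repeats of the ERVL-MaLR family held 294 control-only peaks (5.62%), 191 IL-4-only peaks (3.53%) and 822 shared peaks (4.27%). Among peaks scoring at least 10 the family held 43 of 505 control-only (8.51%) and 23 of 797 IL-4-only peaks (2.89%). These classes were noticed after the values were seen and no test was made.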
